A study of Mus musculus with 12 samples.

Results

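The genes described here are 8 of the 24552 gene symbols in the deposited tables: the chemokine receptors Xcr1, Ccr1, Ccr2, Cx3cr1 and Cxcr4, the atypical receptor Ccrl2, the integrin subunit Itga4, and Cerkl, which shares genomic sequence with Itga4 on the other strand. They were picked by name, with their levels in M1-like and unstimulated cells already known, so the M1 against M0 values below describe them and carry no test. RNA came from mouse bone marrow-derived macrophages (BMDM), grown from marrow for 6 days in the growth factor M-CSF at 10 ng/ml. There were 4 groups of 3 libraries. Vehicle M0 and vehicle M1 cells had DMSO, and ISRIB M0 and ISRIB M1 cells had 50 nM ISRIB, each from a pre-treatment of 1 h onwards. M1 cells were then given LPS at 10 ng/ml and IFN-γ at 25 ng/ml for 16 h, while what M0 cells had in that time is not in the labels. ISRIB is a small molecule that keeps the translation factor eIF2B active when the integrated stress response is on. No strain, genotype, age or number of animals is given in the labels. The libraries are called biological replicates, but nothing says that they came from separate mice, so every p-value below measures only the spread between these samples.

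Chemokine receptors are G protein-coupled receptors that steer leukocytes along gradients of small secreted proteins. Monocytes are known for Ccr2 and Cx3cr1, tissue macrophages in several organs keep Cx3cr1, and Xcr1 is best known as the receptor for Xcl1 on cross-presenting type 1 dendritic cells. Ccrl2 binds the chemoattractant chemerin without classical signalling. The integrin alpha 4 chain, encoded by Itga4, pairs with a beta chain to bind Vcam1 and fibronectin, whereas Cerkl encodes a ceramide kinase-like protein studied mainly in the retina.

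Positions are on mouse build GRCm38, from GENCODE M21. Xcr1 lies at chr9:123852315-123862029 on the minus strand, in a cluster with Ccr1 at chr9:123962124-123968692 on the minus strand and Ccr2 at chr9:124101950-124113557 on the plus strand. Ccrl2 at chr9:111054486-111057519 and Cx3cr1 at chr9:119901616-120069879, both on the minus strand, are elsewhere on chromosome 9, and Cxcr4 is at chr1:128588199-128592293 on the minus strand. Cerkl at chr2:79330543-79456785 on the minus strand and Itga4 at chr2:79255426-79333123 on the plus strand meet tail to tail.

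RefSeq promoters (build GRCm38.p6) of the 3 receptors whose CPM did not overlap between M1 and M0 libraries under either treatment are shown, since they carry the letters next to the start sites in question. Each runs 5′ to 3′ on the gene's strand, with the 250 bases before the start site in lower case and the 50 bases from the start site on in capitals. Xcr1 is read from chr9:123861980-123862279 and the first of 3 listed Ccrl2 start sites from chr9:111057469-111057768, both with more counts in M1. The Cx3cr1 window, with more counts in M0, is chr9:120068247-120068546, and all 3 are on the minus strand.
Xcr1: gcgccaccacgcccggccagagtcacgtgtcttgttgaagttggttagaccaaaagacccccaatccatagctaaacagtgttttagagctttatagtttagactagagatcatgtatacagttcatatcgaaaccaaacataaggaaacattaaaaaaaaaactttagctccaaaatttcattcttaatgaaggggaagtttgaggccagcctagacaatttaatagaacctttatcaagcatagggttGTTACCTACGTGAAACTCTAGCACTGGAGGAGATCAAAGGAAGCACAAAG
Ccrl2: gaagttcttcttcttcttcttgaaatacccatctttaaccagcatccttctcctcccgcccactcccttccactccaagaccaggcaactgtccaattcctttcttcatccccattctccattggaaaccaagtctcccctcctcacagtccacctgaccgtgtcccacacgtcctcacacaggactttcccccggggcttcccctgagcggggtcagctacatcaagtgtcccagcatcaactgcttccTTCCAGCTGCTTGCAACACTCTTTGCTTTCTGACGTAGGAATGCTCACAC
Cx3cr1: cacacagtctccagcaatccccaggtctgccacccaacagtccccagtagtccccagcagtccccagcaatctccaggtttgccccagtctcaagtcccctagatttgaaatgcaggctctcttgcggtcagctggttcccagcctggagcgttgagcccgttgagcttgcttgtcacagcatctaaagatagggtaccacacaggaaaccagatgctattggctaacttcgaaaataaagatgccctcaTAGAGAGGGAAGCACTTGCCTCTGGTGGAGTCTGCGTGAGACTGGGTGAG

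Letters of 3 factor motifs tied to LPS and IFN-γ signalling were looked for on both strands of the 10 promoters listed for the 8 genes. They were the GAS letters TTCNNNGAA, bound by STAT factors, the IRF core AANNGAAA, and the NF-kB consensus, and none of them contains another. The NF-kB consensus was matched once, in the printed Ccrl2 window, as GGGGCTTCCC from 56 bases before the start site on the gene's strand. It is held by 4.51% of all 32851 promoters of that length. The IRF core was matched at -207 and -98 from the start site of Ccr1 and at -64 from that of Cerkl, against 23.9% of all promoters with a match, and the GAS letters in none of the 10, against 8.30%. Xcr1 and Cx3cr1 had no match to any of the 3. A match is a string of letters and not a site shown to be bound, and no match says only that these letters are not in these windows.

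Depth was low. Library totals ran from 439976 to 514037 counts, and a single count stood for 1.79 to 2.57 CPM (TMM-scaled counts per library size). Symbols with an exon on the strand opposite to another gene's exon were 24.1% of the 24030 matched to the annotation and held 92.3% of their counts (91.2% to 93.1% per library). The libraries were prepared strand-specifically, but the strand setting of the counting is not given in the sources used here. A read in an overlap therefore cannot be assigned to a strand from these tables. For a gene with no annotated overlap, Xcr1 included, the counts likewise do not show which strand the reads came from, and every value below is one of reads assigned to a symbol. Whether the counting took the strand opposite to that of the RNA was not tested. A value under a symbol, Cerkl and Xcr1 included, therefore need not be that of the gene's own mRNA. Among the 8 genes, Cerkl and Itga4 share 1124 exonic bases with each other and Cx3cr1 shares 78 with the antisense RNA Gm33858, which is not a symbol of the table. Xcr1, Ccr1, Ccr2, Ccrl2 and Cxcr4 share none with an annotated gene on the other strand. Of 11 macrophage markers all had a count, with summed counts of 231 to 479 per M0 library and 132 to 295 per M1 library. Lyz2 alone had 146 to 334 of them per M0 library and 38 to 106 per M1 library, while Cd68 had 2 to 26 per library. Monocyte markers summed to at most 10, neutrophil markers to at most 8 and B cell markers to at most 4 counts in any library, and all 9 T and NK cell markers in the table were at 0. At this depth, and with the strand of the counting unknown, such low counts do not show that a cell type was absent.

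Xcr1 was low in every M0 library and was the most counted of the 6 receptors in every M1 library. It had 17, 6 and 11 counts in vehicle M0 and 404, 325 and 346 in vehicle M1. Under ISRIB it had 10, 16 and 19 counts in M0 and 426, 434 and 407 in M1. The lowest M1 library thus had more than the highest M0 library many times over, with and without ISRIB.

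On the CPM scale Xcr1 stood at 21.5 ± 10.4 (SD, n = 3) in vehicle M0, 28.5 ± 7.41 in ISRIB M0, 892.9 ± 102.9 in vehicle M1 and 997.4 ± 59.4 in ISRIB M1. The spread between M0 libraries was wide for the level, and the M1 libraries lay close together. The fitted difference of M1 from M0 was 41.2-fold in vehicle (95% interval 29.02 to 58.6), a log2 fold change of 5.37 ± 0.25 (SE). In ISRIB it was 34.4-fold (24.6 to 48.3), a log2 fold change of 5.11 ± 0.24. These intervals overlap widely. Without replicate 2 of vehicle M0, which had 6 counts, the log2 fold change in vehicle was 5.04, and without replicate 1, which had 17, it was 5.78. In the authors' deposited log2 values Xcr1 ran from 2.56 to 4.10 in M0 and from 8.63 to 9.03 in M1.

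**Figure D1:**
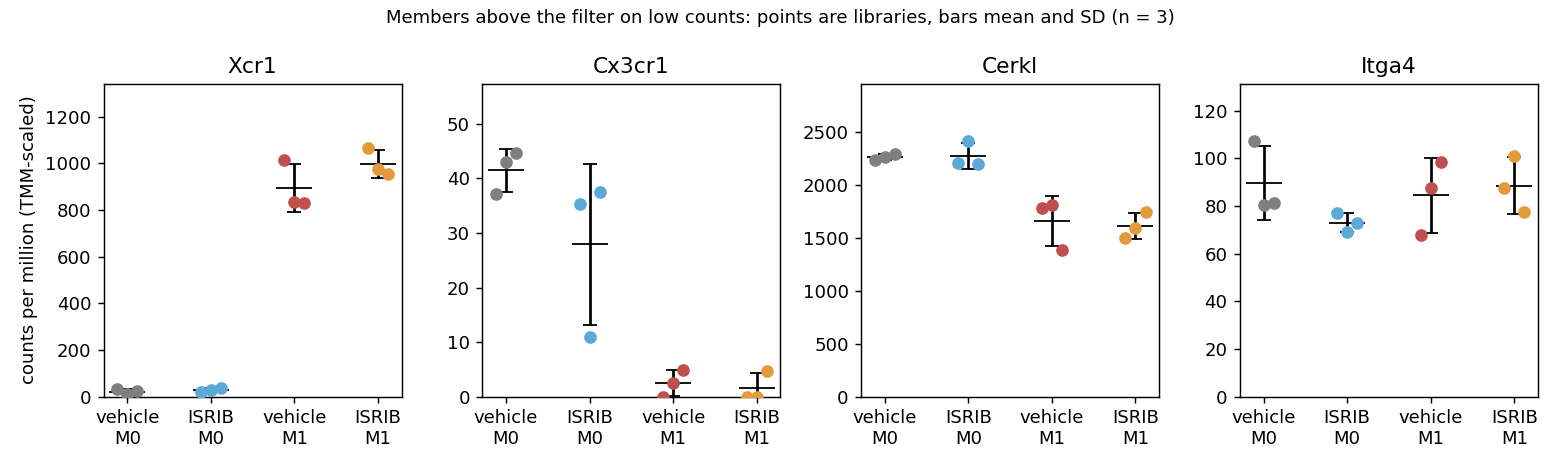
CPM (TMM-scaled) of Xcr1, Cx3cr1, Cerkl and Itga4 in the 4 groups, with 1 point per library and a bar at the mean with its SD (n = 3). Each panel has its own axis from 0: Xcr1 is at most 35.6 in M0 libraries and at least 831.7 in M1 libraries, Cx3cr1 is the reverse at a far lower level, Cerkl is moderately lower in M1, and the Itga4 groups lie close together.

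The 24 chemokine receptor symbols of the family gave 85 to 164 counts per M0 library and 362 to 520 per M1 library. Xcr1 made up 3.66% (95% Wilson interval 1.69 to 7.75, counting error only) to 18.4% (12.1 to 27.02) of them in single M0 libraries. In M1 libraries it made up 82.4% (78.4 to 85.7) to 89.8% (86.2 to 92.5). In M1, then, the great majority of reads that the table assigns to this family carried the name Xcr1. Its ligand Xcl1, made mostly by T and NK cells, had 0 counts in all 12 libraries.

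Since Xcr1 is a marker of type 1 dendritic cells, the other markers of that cell type were read beside it. Clec9a, the dead-cell receptor of those cells, had 10, 32 and 13 counts in vehicle M0 and 10, 31 and 47 in ISRIB M0, and 0 in all 6 M1 libraries. It was at least 13.9-fold lower in vehicle M1 and at least 23.9-fold lower in ISRIB M1, with the M1 sum set to a floor of 3 counts over the group. Flt3 and Zbtb46, a receptor and a transcription factor of dendritic cells, were at 0 in all 12 libraries. The 10 markers of that cell type, of which 8 had a count, summed to 18 to 62 counts per M0 library and 1 to 33 per M1 library. Clec9a went the other way to Xcr1 in both treatments. Tlr3, a sensor of double-stranded RNA, did not, with 8, 4 and 6 counts in 3 M1 libraries and 0 in M0. Batf3, a transcription factor of these cells, had 0, 0 and 3 counts in vehicle M0 and 28, 0 and 0 in vehicle M1. Under ISRIB Batf3 had 6, 3 and 0 counts in M0 and 0, 2 and 5 in M1, so it had no clear direction. The 28 Batf3 counts, in replicate 1 of vehicle M1, were most of the highest M1 sum of 33. The other 5 markers, Irf8, Cadm1, Itgae, Wdfy4 and Naaa, had at most 10 counts in any library. With vehicle before ISRIB, Wdfy4 had 2, 4, 4, 0, 2 and 4 in M0 and 0, 0, 1, 1, 0 and 0 in M1. Irf8 had 4, 4, 2, 4, 1 and 10 in M0 and 4, 0, 0, 0, 8 and 1 in M1. Cadm1 had 2, 0, 0, 2, 5 and 0 in M0 and 0, 0, 3, 0, 0 and 0 in M1. Itgae had 0, 5, 2, 2, 1 and 1 in M0 and 1, 7, 5, 0, 0 and 1 in M1. Naaa had 2 counts in 1 M1 library and 0 elsewhere. The part of such cells in the Xcr1 counts was not tested. In bulk RNA, fewer cells of a type and less RNA per cell cannot be told apart.

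Fyco1, which encodes an adaptor for kinesin transport of autophagosomes, is the next gene on the same strand, 415 bases beyond the 3′ end of Xcr1, with no shared base. It had 8, 7 and 0 counts in vehicle M0 and 138, 167 and 139 in vehicle M1. Under ISRIB it had 6, 11 and 3 counts in M0 and 134, 186 and 150 in M1. Fyco1 rose with a log2 fold change of 5.26 ± 0.41 (SE) in vehicle (adjusted p = 4.91e-11) and 4.82 ± 0.39 in ISRIB (adjusted p = 1.09e-10; edgeR quasi-likelihood, Benjamini-Hochberg). Its summed counts were 44.3% of those of Xcr1 in M0 and 39.03% in M1. Whether reads run across this gap was not tested.

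The other genes described from the cluster had few counts. Ccr1 and Ccr2 are described below. Ccr9 had 0 counts in M0 and at most 2 per M1 library. Cxcr6, which lies within the Fyco1 span on the other strand, had 2 to 9 counts in M0 and a count in 2 of the 6 M1 libraries. Ccr3 and Ccr1l1 were at 0 throughout. Xcr1 and Fyco1 each had over 100 counts in each M1 library.

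**Figure D2:**
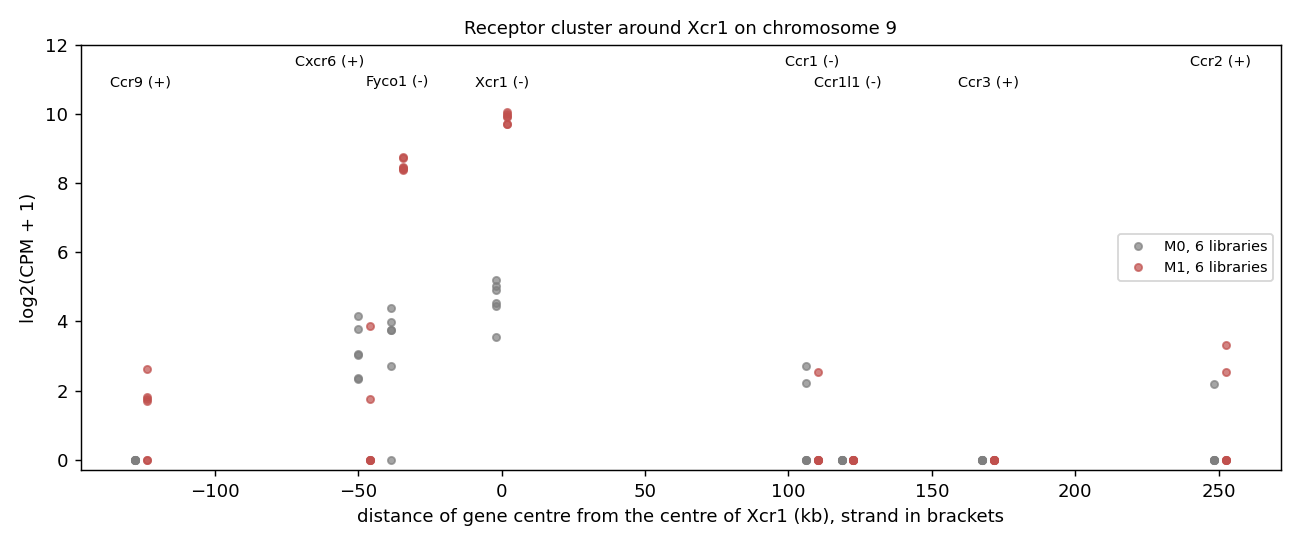
Expression, as log2(CPM + 1), of 8 genes of the receptor cluster by the distance of each gene's centre from that of Xcr1 in kb, with grey points for the 6 M0 and red points for the 6 M1 libraries. Xcr1 and Fyco1 stand above 8 in all M1 libraries, while the other 6 genes plotted stay below 5 in every library.

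Ccrl2 was the other receptor of the 6 whose M1 libraries all lay above its M0 libraries in CPM within each treatment, at a far lower level. It had 0, 0 and 2 counts in vehicle M0 and 6, 2 and 4 in vehicle M1. Under ISRIB it was at 0 in all 3 M0 libraries and had 4, 10 and 3 counts in M1. A count was seen in 6 of 6 M1 libraries and in 1 of 6 M0 libraries.

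Summed over the group and scaled to library size, Ccrl2 was 7.93-fold higher in vehicle M1 (exact 95% interval 1.77 to 73.0, counting error only). In ISRIB it was at least 6.97-fold higher in M1, against the floor of 3 counts over the M0 group. This value leaves out counting error in the M1 sum and is not a 95% limit. Vehicle M0 replicate 3 and vehicle M1 replicate 2 had the same count of 2 and differed on the CPM scale only through library size, at 4.05 and 5.14 CPM. Per kilobase of exon, Ccrl2 reached 3.82 ± 1.91 CPM (SD, n = 3) in vehicle M1, where Xcr1 reached 200.5 ± 23.1.

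Cx3cr1, the fractalkine receptor, had the opposite pattern to Xcr1. It had 20, 24 and 22 counts in vehicle M0 and 0, 1 and 2 in vehicle M1. With ISRIB it had 17, 6 and 20 counts in M0 and 0, 0 and 2 in M1. Every M0 library exceeded every M1 library, and replicate 2 of ISRIB M0 was the lowest of the M0 libraries.

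The summed counts of Cx3cr1 were 66 in vehicle M0 and 3 in vehicle M1, a ratio of 16.6 on the CPM scale (exact 95% interval 5.45 to 82.8). In ISRIB they were 43 and 2, a ratio of 17.5 (4.56 to 149). In CPM the vehicle libraries were at 41.5 ± 3.96 (SD, n = 3) in M0 and 2.46 ± 2.41 in M1. Its annotated span is long and holds other genes, none sharing an exonic base with it except Gm33858. Wdr48, a partner of ubiquitin-specific proteases on the opposite strand of that span, fell with a log2 fold change of -1.98 ± 0.31 (SE) in vehicle and -2.004 ± 0.31 in ISRIB (adjusted p = 9.12e-06 and 5.92e-06, edgeR quasi-likelihood, Benjamini-Hochberg). Gorasp1, a Golgi stacking protein on the same strand, had log2 fold changes of -0.27 ± 0.14 in vehicle and -0.48 ± 0.14 in ISRIB (adjusted p = 0.121 and 0.00713 by the same test in edgeR). Scaled by total counts alone the vehicle value passed too, at -0.58, and without replicate 1 of ISRIB M1 the ISRIB value did not, at -0.39. The difference of Cx3cr1 was thus larger than that of either gene within its span, though these were not tested against each other. Ccr8, the nearest symbol beyond its 5′ end, was at 0 in all libraries.

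Cxcr4, the receptor for Cxcl12, was seen in M0 libraries alone, and not in all of them. It had 0, 6 and 2 counts in vehicle M0 and 4, 10 and 0 in ISRIB M0, and 0 in all 6 M1 libraries. A count of 0 in an M1 library allows up to 3 counts, or 6.73 to 7.71 CPM. Against the floor of 3 counts over the group, Cxcr4 was at least 2.02-fold lower in vehicle M1 and at least 3.80-fold lower in ISRIB M1. Counting error in the M0 sums is left out of these values. Since 2 of the 6 M0 libraries were also at 0, the groups overlapped. Cxcl12 was at 0 in all 12 libraries.

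Ccr1 and Ccr2 were too rare to compare. Ccr1, a receptor for Ccl3 and Ccl5, had 2 and 3 counts in replicates 2 and 3 of ISRIB M0, 2 in replicate 3 of vehicle M1, and 0 in the other 9 libraries. Ccr2, the receptor for Ccl2, had 2 counts in replicate 2 of vehicle M0, 2 in replicate 3 of vehicle M1, 4 in replicate 2 of ISRIB M1, and 0 elsewhere. Neither gene separated any pair of groups, and at this depth no difference was detectable.

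**Figure D3:**
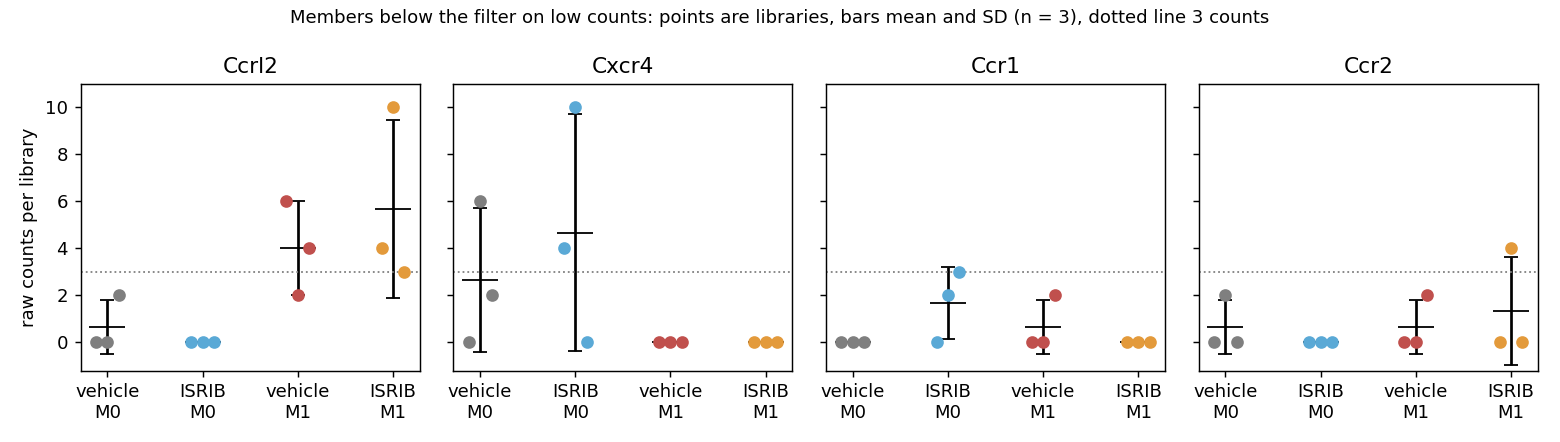
Raw counts per library of Ccrl2, Cxcr4, Ccr1 and Ccr2 in the 4 groups, with 1 point per library, a bar at the mean with its SD (n = 3) and a dotted line at 3 counts. Ccrl2 points are above 0 in all M1 libraries, Cxcr4 points are above 0 in 4 M0 libraries and no M1 library, and most Ccr1 and Ccr2 points lie at 0.

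Cerkl had by far the most counts of the 8 genes and was lower in every M1 library than in any M0 library. It had 1209, 1265 and 1132 counts in vehicle M0 and 711, 704 and 577 in vehicle M1. Under ISRIB it had 1063, 1328 and 1176 counts in M0 and 599, 709 and 745 in M1. The separation held in raw counts as well as in CPM.

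In CPM, Cerkl was at 2266 ± 26.9 (SD, n = 3) in vehicle M0, 2276 ± 121 in ISRIB M0, 1659 ± 236 in vehicle M1 and 1611 ± 125 in ISRIB M1. The fitted log2 fold change of M1 from M0 was -0.45 ± 0.12 (SE) in vehicle and -0.50 ± 0.12 in ISRIB, so the level in M1 was 0.732 and 0.708 of that in M0. How large this difference is depends on the scaling. With total counts alone the log2 fold changes of Cerkl were -0.76 and -0.79, while the median over all tested genes moved to -0.29 in vehicle and -0.30 in ISRIB. Without replicate 3 of vehicle M1, which had the fewest counts, the vehicle value was -0.32. Within the span of Cerkl, Neurod1, a neuronal transcription factor on the same strand that shares 201 exonic bases with it, had 1 count in 1 library and 0 in the rest.

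Itga4 had far fewer counts than Cerkl, and its M1 and M0 levels lay close together. It had 58, 45 and 40 counts in vehicle M0 and 27, 34 and 41 in vehicle M1. In ISRIB it had 37, 38 and 39 counts in M0 and 35, 45 and 33 in M1. Raw counts overlapped between M0 and M1 under ISRIB, and in vehicle they overlapped at 40 and 41.

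Scaled to library size, Itga4 was at 89.7 ± 15.4 CPM (SD, n = 3) in vehicle M0, 73.0 ± 3.91 in ISRIB M0, 84.5 ± 15.7 in vehicle M1 and 88.6 ± 11.9 in ISRIB M1. The log2 fold change of M1 from M0 was -0.085 ± 0.32 (SE) in vehicle and 0.28 ± 0.32 in ISRIB. Both are smaller than their standard errors. The vehicle value changed sign without replicate 1 of vehicle M0 (0.085) or without replicate 1 of vehicle M1 (0.064), and with total counts alone the ISRIB value was -0.0068. In CPM the ISRIB M1 libraries all lay above the ISRIB M0 libraries, by 77.3 against 77.0 at the closest.

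The shared sequence of Cerkl and Itga4 is a span of 2581 bases at chr2:79330543-79333123, where their 3′ ends cross. It holds 1124 bases exonic in both genes. All 1124 lie in the 3′ UTR of Itga4, and 79 of them in coding sequence of Cerkl. They make up 21.3% of the exonic length of Cerkl and 8.04% of that of Itga4. Whether the reads named Cerkl came from this stretch, and from which strand, cannot be read from counts per gene.

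Over the pair, Itga4 took a small share of the counts in every library. It was 4.58%, 3.44% and 3.41% in vehicle M0 and 3.36%, 2.78% and 3.21% in ISRIB M0. In vehicle M1 it was 3.66%, 4.61% and 6.63%, and in ISRIB M1 5.52%, 5.97% and 4.24%. In ISRIB the M1 shares all exceeded the M0 shares, and in vehicle they overlapped.

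The mean share was 3.81 ± 0.67% (SD, n = 3) in vehicle M0 and 4.97 ± 1.52% in vehicle M1, and 3.12 ± 0.30% in ISRIB M0 and 5.24 ± 0.90% in ISRIB M1. The lowest share, in replicate 2 of ISRIB M0, had a 95% Wilson interval of 2.03 to 3.80, and the highest, in replicate 3 of vehicle M1, one of 4.93 to 8.88. Put the other way, there were 14.07 to 34.9 Cerkl counts for each Itga4 count. Summed over libraries and scaled to their size, Itga4 was at 72.9 CPM in ISRIB M0 and 88.8 in ISRIB M1, and Cerkl at 2280 and 1613.

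**Figure D4:**
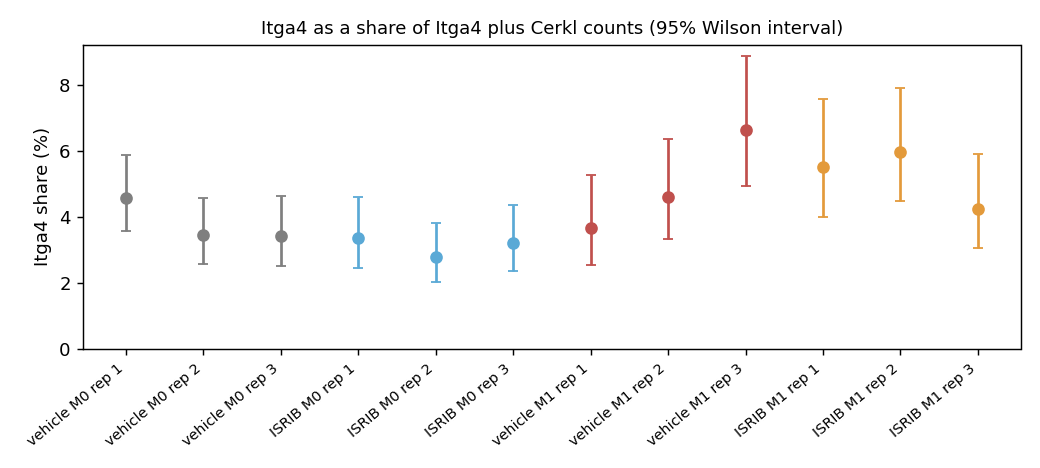
Itga4 counts as a percentage of Itga4 plus Cerkl counts in each of the 12 libraries, with 95% Wilson intervals that cover counting error only. Shares lie between 2.78% and 6.63%, and the 3 ISRIB M0 libraries lie below the 3 ISRIB M1 libraries.

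Side by side, the 8 genes had no common direction. In vehicle, M1 and M0 libraries did not overlap in CPM for 4 of the 8, Xcr1 and Ccrl2 with more in M1 and Cx3cr1 and Cerkl with more in M0. Over the 2356 genes with enough counts to be tested, 52.7% did not overlap between these groups, 27.7% higher and 25% lower in M1. In ISRIB this was so for 5 of the 8, the same 4 and Itga4, against 55.2% of all tested genes, 28.8% higher and 26.4% lower. For comparison, 44.8% of tested genes passed an adjusted p of 0.05 in vehicle, 24.3% higher and 20.5% lower in M1, and 44.8% passed in ISRIB, 23.9% higher and 20.9% lower. Scaled by total counts alone, 41.3% of the genes passing in vehicle were higher in M1, against 54.2% with TMM, and 39.4% against 53.4% in ISRIB. Since the genes were chosen with these differences known, nothing is read from their counts against this background.

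Levels per kilobase of exon put the genes on 1 scale, which takes reads as spread over all annotated exons of a gene. Whether they were so spread was not tested, and for Cerkl it cannot be read from counts per gene. In vehicle M0 the order was Cerkl at 428.8 ± 5.09 CPM per kb (SD, n = 3), Cx3cr1 at 9.22 ± 0.88, Itga4 at 6.42 ± 1.10, Xcr1 at 4.83 ± 2.34 and Cxcr4 at 2.73 ± 3.00. Itga4 and Xcr1 did not differ beyond their spread, nor did Xcr1 and Cxcr4. In vehicle M1 Cerkl at 314.0 ± 44.7 was followed by Xcr1 at 200.5 ± 23.1, then Itga4 at 6.05 ± 1.12 and Ccrl2 at 3.82 ± 1.91. Xcr1 was thus close to Itga4 in M0 and closer to Cerkl than to Itga4 in M1. Under ISRIB the order in M1 was the same, but that in M0 was not. In ISRIB M0 Cerkl was followed by Xcr1 at 6.40 ± 1.66, Cx3cr1 at 6.20 ± 3.28, Itga4 at 5.23 ± 0.28 and Cxcr4 at 4.89 ± 5.04. These receptors and Itga4 did not differ beyond their spread there.

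ISRIB was the contrast on which the genes could be tested, by quasi-likelihood tests in edgeR adjusted over 2356 genes by the Benjamini-Hochberg method. Of the 8 genes, 4 passed the filter on low counts: Xcr1, Cx3cr1, Cerkl and Itga4. Cx3cr1 passed it through its M0 counts and had at most 2 counts in an M1 library, so it is left out of the M1 contrast and the interaction. In M1 cells 0 of the other 3 passed an adjusted p of 0.05, as did 0% of all tested genes, 134 of which had an unadjusted p under 0.05. In M0 cells 0 of the 4 and 0% of all genes passed, with 143 at an unadjusted p under 0.05. The interaction, which asks whether the ISRIB effect differed between M1 and M0, also gave 0 of the 3 and 0%, with 167 genes at an unadjusted p under 0.05. For the genes described here, none of the unadjusted p-values in edgeR's model was under 0.05. ISRIB and vehicle libraries were apart in CPM for 0 of the 8 genes in M1, where 5.39% of tested genes were apart and higher and 6.2% apart and lower. In M0 they were apart for 1 of the 8, Itga4, where 5.56% of tested genes were apart and higher and 5.73% apart and lower.

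In M1, the ISRIB effect on Xcr1 was a log2 fold change of 0.16 ± 0.17 (SE), with a 95% interval of -0.20 to 0.51 (adjusted p = 0.976, edgeR quasi-likelihood, Benjamini-Hochberg). In M0 it was 0.42 ± 0.34, with an interval of -0.27 to 1.11 (adjusted p = 0.998 in the same edgeR test). The interaction for Xcr1 was -0.26 ± 0.37, with an interval of -1.03 to 0.51. Among M1 libraries, all 3 ISRIB counts exceeded all 3 vehicle counts, but in CPM the groups overlapped, since vehicle replicate 1 was at 1012 and ISRIB replicate 3 at 953.1. The interval in M1 leaves room for an effect of up to 1.43-fold higher or 0.873 of the vehicle level.

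Cerkl gave the narrowest intervals of the 4 genes. Its ISRIB effect was -0.042 ± 0.12 on the log2 scale in M1 (95% interval -0.28 to 0.20) and 0.0069 ± 0.11 in M0 (-0.23 to 0.24). Counts of Cerkl were high enough that a change beyond 0.823 to 1.15 times the vehicle level in M1 lies outside the interval. The interaction was -0.048 ± 0.16.

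Itga4 had an ISRIB effect of 0.068 ± 0.32 in M1 (95% interval -0.60 to 0.73) and -0.30 ± 0.32 in M0 (-0.95 to 0.35) on the log2 scale. In M0 all 3 ISRIB libraries, at 69.1 to 77.0 CPM, lay below all 3 vehicle libraries, at 80.5 to 107.5 CPM. That was so for 5.73% of all tested genes in this contrast, and the adjusted p for Itga4 was 0.998 by edgeR. The interaction was 0.36 ± 0.45.

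For Cx3cr1 the ISRIB effect could be estimated in M0 alone, at -0.57 ± 0.75 (95% interval -2.12 to 0.98; adjusted p = 0.998, edgeR quasi-likelihood, Benjamini-Hochberg). Replicate 2 of ISRIB M0, with 6 counts, was far below the other 2 at 17 and 20, and without it the value was -0.17. In M1 both groups were at or under 3 counts in all, so no fold is given. The other 4 receptors had summed counts of 0 to 17 in each group, and their ISRIB and vehicle libraries overlapped in both states.

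**Figure D5:**
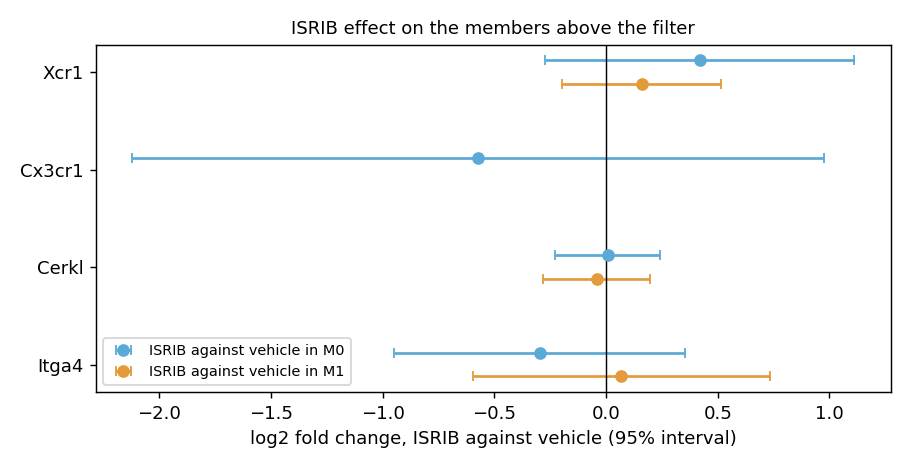
Fitted log2 fold change of ISRIB against vehicle with its 95% interval for the genes above the filter on low counts, in M0 (blue) and M1 (orange). All 7 intervals include 0, and they are narrowest for Cerkl and widest for Cx3cr1.

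Other receptors of the family were mostly uncounted. The gene lists here and below were also chosen with earlier results of these data known. Their M1 against M0 adjusted p-values therefore describe the genes and are not independent tests. Over all tested genes, 24.3% passed as higher and 20.5% as lower in vehicle, and 23.9% and 20.9% in ISRIB. Of the 18 chemokine receptor symbols beside the 6 described, 3 had enough counts to be tested. Ackr4, a scavenging receptor that overlaps Acad11 on the other strand by 479 exonic bases, had 71, 108 and 57 counts in vehicle M0 and 31, 25 and 32 in vehicle M1. It fell in vehicle with a log2 fold change of -1.01 ± 0.35 (adjusted p = 0.0205) and did not pass in ISRIB, at -0.32 ± 0.35 (adjusted p = 0.487; edgeR quasi-likelihood, Benjamini-Hochberg). The vehicle call for Ackr4 was lost without replicate 2 of vehicle M0 (-0.75) or of vehicle M1 (-0.92).

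Cxcr5, the receptor for Cxcl13, overlaps Bcl9l on the other strand by 110 exonic bases. Cxcr5 had 0 to 3 counts per M0 library and 4 to 17 per M1 library, and passed the low-count filter through its M1 counts alone. It rose in vehicle at 2.57 ± 1.02 (adjusted p = 0.0431), a call that 13 of 18 alternatives lost, with adjusted p-values from 0.0137 to 0.169 over them, and was at 2.27 ± 1.01 in ISRIB (adjusted p = 0.0699; edgeR, Benjamini-Hochberg). Ccr10, a skin-homing receptor, had log2 fold changes of -1.05 ± 0.97 and 0.19 ± 1.02. The median of the 3 genes was -1.01 in vehicle and 0.19 in ISRIB, beside 0.011 and -0.014 over all tested genes. None of the 3 reached the log2 fold change of Xcr1.

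Among 16 other chemoattractant receptors, 3 were tested and 1 rose in each treatment. This was Ptgdr2, a prostaglandin D receptor that overlaps Ccdc86 by 1031 exonic bases on the other strand, at 1.54 ± 0.18 in vehicle and 1.83 ± 0.18 in ISRIB (adjusted p = 1.22e-07 and 6.02e-09, edgeR, Benjamini-Hochberg). Of 17 ligands 3 were tested, and in vehicle 1 rose and 1 fell, while in ISRIB 2 rose and 1 fell. Beside both lists, 24.3% of all tested genes rose and 20.5% fell in vehicle, and 23.9% and 20.9% in ISRIB. Ccl5, a ligand of Ccr1, had 0 counts in M0 and 50 to 112 in M1, at least 89.9-fold higher in vehicle and at least 91.8-fold in ISRIB. It passed the low-count filter through its M1 counts alone, so its calls are not read as support. Ccl3, another Ccr1 ligand, was at 0.36 ± 0.15 in vehicle (adjusted p = 0.0610) and 0.44 ± 0.15 in ISRIB (adjusted p = 0.0207, edgeR, Benjamini-Hochberg), a call lost under 5 of 19 alternatives. These were total-count scaling, where it was at 0.15, no low-count filter, and leaving out replicate 1 of ISRIB M0 or replicate 1 or 3 of ISRIB M1, with adjusted p-values of 0.0934 to 0.441 by edgeR. Rarres2, which encodes the Ccrl2 ligand chemerin and overlaps Lrrc61 by 892 exonic bases, fell at -0.98 ± 0.13 and -1.31 ± 0.13.

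Integrin subunits other than Itga4 were tested for 5 of 26 symbols, of which 1 rose in vehicle, 2 rose in ISRIB and 0 fell. Of all tested genes, 24.3% rose and 20.5% fell in vehicle, and 23.9% and 20.9% in ISRIB. Itgam, the alpha M chain of complement receptor 3, rose at 2.16 ± 0.52 and 2.21 ± 0.51 (adjusted p = 0.00130 and 0.000908, edgeR, Benjamini-Hochberg). Itga5, the alpha chain of the fibronectin receptor, had 4, 0 and 0 counts in vehicle M0 and 8, 4 and 10 in vehicle M1 (adjusted p = 0.0534). In ISRIB it was at 0 in M0 and at least 18.9-fold higher in M1 (adjusted p = 0.000654, edgeR, Benjamini-Hochberg). Itga5 passed the low-count filter through its M1 counts alone, so its adjusted p-values are not read as support. The partners and ligand of the alpha 4 chain were thinly counted: Itgb1 had 7 to 81 counts per library, Itgb7 at most 2, and Vcam1 was at 0.

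The list of 43 signalling genes of receptors and integrins had 13 that were tested, and 4 rose and 1 fell in vehicle, while 5 rose and 0 fell in ISRIB. Of all tested genes 44.8% passed in each treatment, 24.3% higher and 20.5% lower in vehicle and 23.9% and 20.9% in ISRIB. Nothing is therefore read from the number of list genes that passed. Lyn, a Src-family kinase, rose at 2.09 ± 0.34 in vehicle and 1.66 ± 0.34 in ISRIB. Fermt3, which encodes the integrin activator kindlin-3, rose at 1.60 ± 0.20 and 1.55 ± 0.21. Lyn shares 248 exonic bases with Gm26857 and Fermt3 shares 89 with Trpt1, both on the other strand. The GTPase Rac2 had 0 counts in M0 and was higher in M1 by at least 12.8-fold in vehicle and 10.7-fold in ISRIB, against the floor of 3 counts. It passed the low-count filter through its M1 counts alone, so its calls are not read as support. Cdc42 rose at 2.07 ± 0.84 and 2.51 ± 0.87, and its vehicle call was lost under 10 of 19 alternatives. Rac1, which shares 2309 exonic bases with Daglb on the other strand, fell in vehicle at -1.64 ± 0.59 and was at -0.11 ± 0.57 in ISRIB. Its vehicle call was lost under 5 of 19 alternatives, with no low-count filter or without replicate 2 or 3 of vehicle M0 or replicate 1 or 2 of vehicle M1, at adjusted p-values of up to 0.135 by edgeR. Rap1b rose in ISRIB at 1.61 ± 0.51 and was at 1.06 ± 0.51 in vehicle. All calls are by Benjamini-Hochberg adjusted p in edgeR, and 0 genes of any of these lists passed in an ISRIB contrast.

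The genes whose levels ran closest to each member over the 12 samples were named by Pearson r of log2 CPM, as a description. For Xcr1 they were Rnf123, Fancl and Mir6381, each at 0.993, and Mir6381 overlaps the interferon-induced Gbp2 on the other strand. For Cx3cr1 they were Cln3 at 0.961, Tsc2 at 0.949 and Acadvl at 0.949, and for Cerkl Fam210a at 0.988, Rab20 at 0.967 and Eml6 at 0.959. Itga4 had no gene above 0.792, which was Cops3, with Plekho2 at 0.758 and Fgd6 at 0.746. All the genes named here except Plekho2 and Fgd6 have an exon that overlaps another gene's exon on the other strand. For Xcr1, Cx3cr1 and Cerkl the samples fall into an M0 and an M1 cluster, which any gene that separates the states shares.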

How the data were processed

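Polyadenylated RNA of 12 BMDM samples was sequenced from strand-specific TruSeq mRNA libraries, per the labels' protocols. Raw counts of reads per symbol, as whole numbers, and log2 values of the same symbols were deposited as 2 tables. In the values, each deposited log2 number is log2(count / library factor + 1). Build mm10, FastQC, HTSeq and DESeq2 are named in the submitters' processing notes without versions or settings, and the aligner is not given in the sources used here.

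The model was fitted with edgeR 4.0.16 (R 4.3.3) over all 12 samples and 4 group means, with no replicate block. The filter was filterByExpr (minimum count 10, minimum total 15), which left 2356 genes with 97.6% of counts, and scaling was by TMM. Contrasts were tested by quasi-likelihood with p-values adjusted by the Benjamini-Hochberg (BH) method over all tested genes, at a threshold of 0.05. The common biological coefficient of variation was 0.275. The code of the test was also run on simulated counts, with a single shared spread for all genes and changes placed in vehicle M1 alone. That run did not cover the ISRIB contrasts and does not show how the test behaves on these data. Folds of sparse genes are ratios of summed counts over TMM-scaled library sizes, with exact 95% intervals or a floor of 3 counts over the group, since 1 count was 1.79 to 2.57 CPM. A fold given as at least a value sets the group at 0 to this floor. It leaves out counting error in the other group, so it is not a 95% limit. Exact intervals are taken on the sums, so they leave out the spread between libraries and cover counting error only. Reads carried no molecular identifiers, so copies of 1 molecule could not be told apart, and even counting error can be understated.

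The 8 genes and all gene lists were chosen with earlier results of these data known. Other genes named were annotated neighbours, list genes past the threshold (at most 6 per list), and the 3 genes closest to each tested member by Pearson r (prior count 2). Lists were chemokine receptors, other chemoattractant receptors, ligands, integrin subunits, receptor and integrin signalling, and markers of macrophages, type 1 dendritic cells, monocytes, neutrophils, T and NK cells and B cells. Of 8 macrophage markers tested, 4 rose and 2 fell in vehicle M1, and 3 rose and 1 fell in ISRIB M1. Over all tested genes 44.8% passed in each treatment. Clec9a, the only dendritic cell marker tested, fell in both. It passed the low-count filter through its M0 counts alone, so its calls are not read as support. Partners such as Itgb7, and features outside these rules, were chosen after their values were seen. Alternatives were the replicate block, DESeq2 size factors, the DESeq2 1.42.0 Wald test, limma 3.58.1 on the deposited log2 values, no low-count filter, only the compared groups, and leaving out each sample. Scaling by total counts alone was added after seeing the data.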

Additional observations from a re-analysis of the deposited data

How the results depend on the processing

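No alternative brought any of the 8 genes past the threshold in an ISRIB contrast or in the interaction, including the replicate block, which gave 0 in all 3. Same-numbered samples had correlations of -0.06 to 0.113 between their deviations from group means, so the numbers were not taken to pair the samples. With the block, the log2 fold change of M1 from M0 was 5.37 for Xcr1, -0.45 for Cerkl and -0.081 for Itga4 in vehicle, and it changed no call on these genes. Over all genes the interaction gave 3 calls with the block and 0 without.

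Of 301 fold changes of Xcr1, Cx3cr1, Cerkl and Itga4 under the alternatives, 13 changed sign, all of values smaller than their standard error. Moves of more than 1 SE were counted for M1 against M0 alone, where there were 7. The ISRIB contrasts had such moves too. For Xcr1 in M0 the ISRIB effect was 0.42 ± 0.34 with all samples and ran from 0.097 to 0.83 with single samples left out. With total counts alone, M1 against M0 was 5.07 and 4.81 for Xcr1 in vehicle and ISRIB, -0.76 and -0.79 for Cerkl, and -0.0068 for Itga4 in ISRIB. Leaving out single samples gave -0.20 to 0.085 for Itga4 in vehicle. For ISRIB against vehicle it gave -0.16 to 0.027 for Cerkl and -0.073 to 0.19 for Itga4 in M1, and -0.025 to 0.044 for Cerkl in M0. Cerkl in M0 was also at -0.0048 with no low-count filter and at -0.0021 by limma on the deposited values. The interaction ran from -0.67 to 0.066 for Xcr1 and from -0.18 to 0.010 for Cerkl. Among other genes, M1 against M0 in ISRIB ran from -0.67 to 0.018 for Ackr4 and from -0.58 to 0.28 for Rac1. The cause of these changes was not tested. Of the other genes of the 5 lists that are not cell type markers, 11 passed in each of vehicle and ISRIB M1 against M0, with 8 to 14 and 10 to 13 under the alternatives. Without the low-count filter, 10 of 10978 genes passed for ISRIB in M0, and the DESeq2 Wald test passed 3 of 2356, none of them among the 8 genes or the lists. Depth limits Ccr1, Ccr2, Cxcr4 and Ccrl2 most, since a few counts decide each value.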
